A study of Mus musculus with 8 samples.

Results

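The genes described here encode the working parts of the lysosome, the acid compartment in which a cell breaks down what it has engulfed. The list holds 45 genes in 3 classes, chosen from what their proteins do. The rule uses no measured value, but earlier results of these data were known when the genes were chosen. The 45 are 24 hydrolases, 12 membrane and lipid-binding proteins and 9 subunits or accessory proteins of the vacuolar proton pump (V-ATPase). Cathepsins were not included. Of the 45, 43 were measured, among 22180 genes on the array. Glb1 lies on a feature shared with Tmppe, and Dnase2a lies on features shared with other genes, so neither was analysed here.

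The cells were taken with CD11b magnetic beads from the ascites of female C57BL/6 mice carrying ID8 tumors. ID8 cells come from mouse ovarian surface epithelium and form tumors in the abdominal cavity, and the mice were 8 weeks of age when injected. The design has a control group of 4 mice (replicates 1 to 4) and an anti-LIF group of 4 mice (replicates 5 to 8), each mouse on 1 Affymetrix Mouse Gene 2.1 ST array. Control mice are untreated in the labels and received a control IgG in the study's methods. Anti-LIF mice received a neutralizing antibody against the cytokine LIF 2 times a week for 25 days, from day 12 after inoculation in the series' design text, although a legend of the study gives another start. The comparison asks which genes of these cells differ after LIF is blocked. The cells were bound by 1 surface protein, so a sample can hold macrophages, monocytes, neutrophils and dendritic cells. Markers of tumor and mesothelial cells were also bright in both groups, as described below.

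Lysosomal hydrolases are made in the endoplasmic reticulum, mostly carried by mannose 6-phosphate receptors, and work only at the low pH that the V-ATPase sets by pumping protons at the expense of ATP. Heavily glycosylated membrane proteins such as LAMP1 and LAMP2 line the compartment, and small lipid-binding proteins lift lipids to the enzymes or pass cholesterol out of it. Macrophages are rich in lysosomes, and inherited loss of single members causes storage diseases in which the undigested substrate builds up.

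After anti-LIF most of the lysosomal genes were lower. By limma, with p-values adjusted over all genes and a threshold of 0.1, 24 of the 43 (55.8%) fell and 0 rose, against 11% of all genes that fell and 5.79% that rose. At an unadjusted p under 0.05, 30 members were lower and 0 were higher. The log2 fold change was negative in 41 of the 43, with a median of -0.39 (range -1.80 to 0.21), against 0.03 for all genes. In 27 members every anti-LIF array lay below every control array, which held for 11.9% of all genes. Such separation fixes the exact two-sided permutation p at 0.029, the smallest that 4 against 4 arrays allow, so that p adds nothing to the count. In bulk samples, fewer cells of a type and less RNA per cell cannot be told apart, and this holds for every value below.

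**Figure D1:**
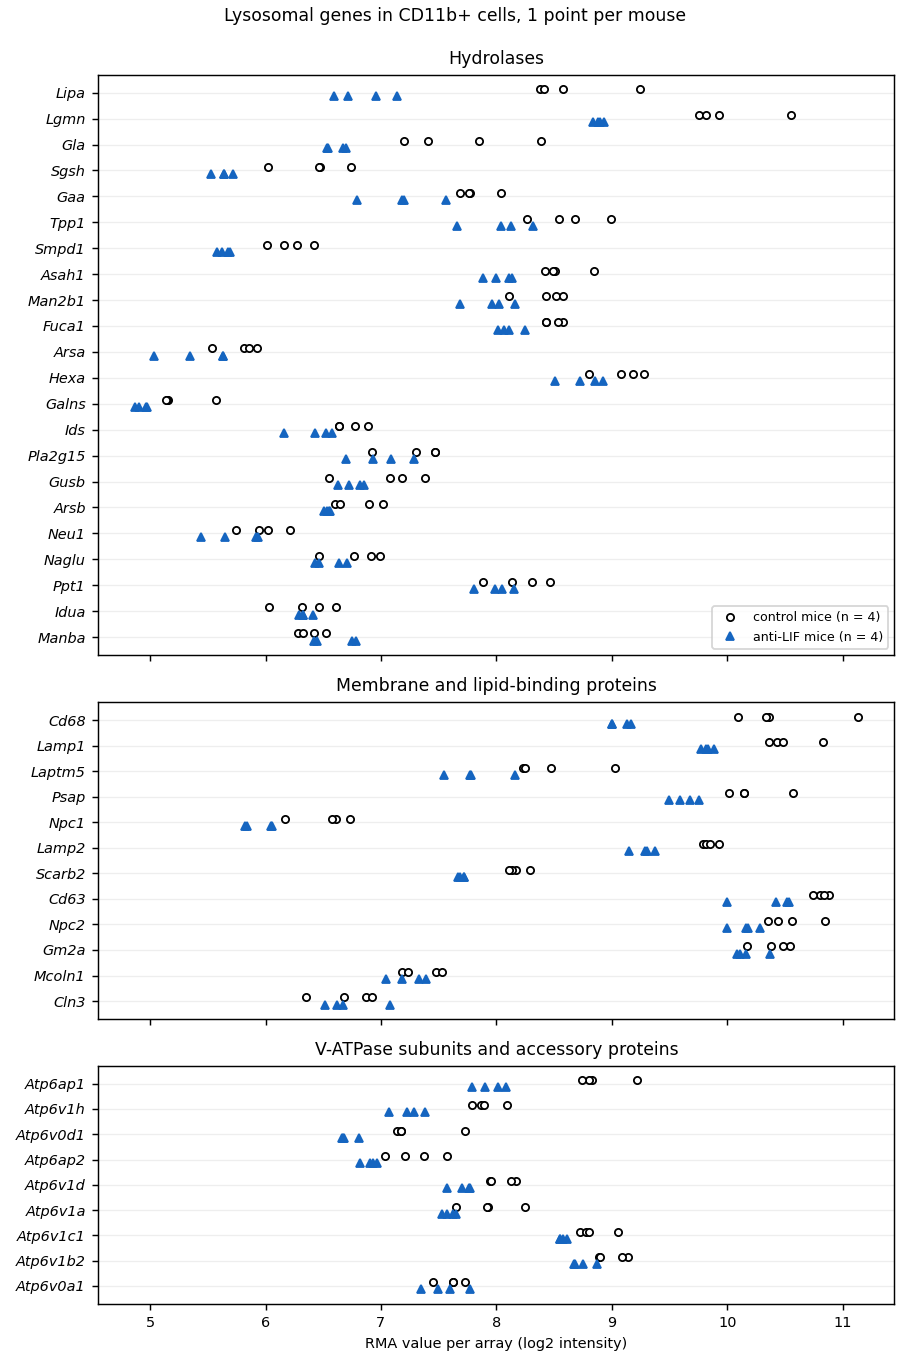
Each row is a lysosomal gene and each point 1 mouse, with the RMA value (log2 intensity) on the horizontal axis, open circles for the 4 control mice and blue triangles for the 4 anti-LIF mice. The groups lie apart in 27 of the 43 genes, most widely for Lipa and Cd68, while Idua, Mcoln1, Cln3 and Atp6v0a1 overlap.

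Level matters to how these counts read. All 43 members lay above the median level of the array's genes, and among the 11090 genes above that median 20.6% fell, with a median log2 fold change of -0.12. The share that fell rose with level, from 13.8% of genes with a mean value of 5 to 6 to 21.7% at 6 to 7, 29.5% at 7 to 8, 36.2% at 8 to 9, 37.5% at 9 to 10 and 37.9% above 10. In the same ranges, 1 of 4, 2 of 9, 8 of 12, 6 of 10, 4 of 4 and 3 of 4 members fell, so that at 6 to 7 the members' share was near that of all genes. Within their own range of level, 37 of the 43 members had a fold change below the median of all genes. The members' median was furthest from that of all genes at 9 to 10 (-0.86 against -0.25, 4 members) and nearest at 6 to 7 (-0.26 against -0.16, 9 members).

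**Figure D2:**
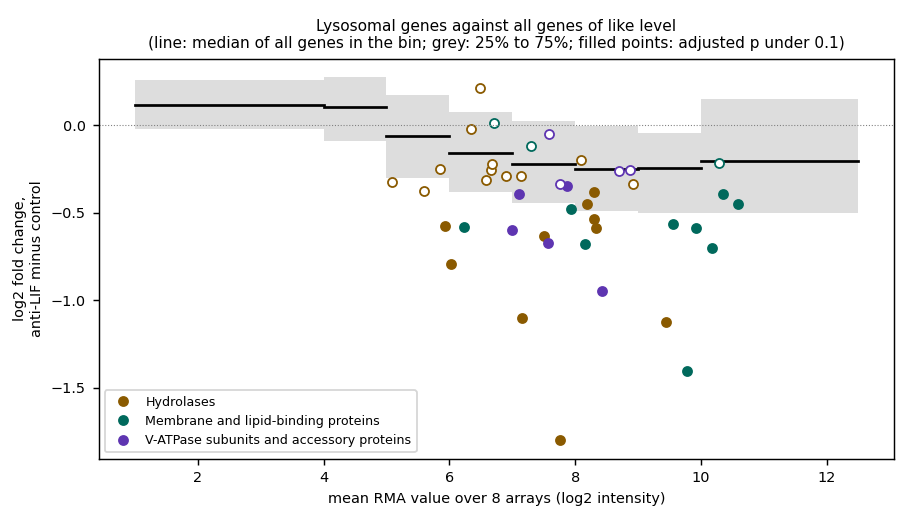
The log2 fold change (anti-LIF minus control) of each lysosomal gene is plotted against its mean RMA value over the 8 arrays, coloured by class and filled where the adjusted p was under 0.1, over the median (line) and the 25% to 75% range (grey) of all genes in ranges of level. The median of all genes falls from 0.12 below a value of 4 to -0.25 at 9 to 10, and 37 of the 43 points lie under the line.

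The scale of the arrays also matters. Values varied less over the genes of an anti-LIF array (SD 1.80 to 1.85) than over those of a control array (SD 1.91 to 2.01). When quantile normalization was applied again, which gives every array the same distribution, 11 members fell (25.6%) against 6.56% of all genes, and the members' median was -0.20. Over all genes, 2448 fell and 1284 rose with the values as deposited. These counts became 1454 and 1326 after quantile normalization and 3215 and 884 once the arrays had been set to equal medians. The 11 members that fell under quantile normalization were Lipa, Lgmn, Gla, Sgsh, Smpd1, Cd68, Lamp1, Npc1, Atp6ap1, Atp6v1h and Atp6v0d1, and these kept their call in each of the alternatives tried.

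**Figure D3:**
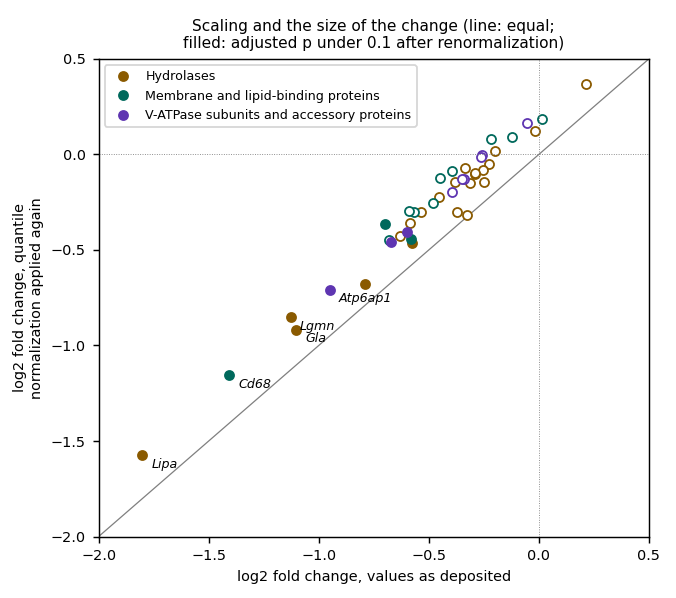
The log2 fold change of each lysosomal gene (anti-LIF minus control) with the values as deposited is on the horizontal axis and with quantile normalization applied again on the vertical axis, with the line of equal values and filled points for the 11 genes still at an adjusted p under 0.1. Lipa, Cd68, Lgmn, Gla and Atp6ap1 stay far below 0, and 36 of the 43 points remain negative.

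Control mice varied more than anti-LIF mice. The SD was larger in the control group for 34 of the 43 members (79.1%), against 51.3% of all genes. Control replicate 3 was the highest control array in 27 members, and replicates 1 and 4 were the lowest in 21 and 18. Without control replicate 3, 17 members fell, against 7.44% of all genes in that fit. The count was also 17 without control replicate 2, anti-LIF replicate 6 or anti-LIF replicate 8, and 16 without anti-LIF replicate 7.

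Most, but not all, general macrophage markers fell beside the lysosomal genes. Of 16 general macrophage markers 15 were measured, of which 9 fell and 0 rose (11 and 0 at an unadjusted p under 0.05), with a median log2 fold change of -0.72. Their summed level on the linear scale was 7935 to 12162 in control mice and 6307 to 7475 in anti-LIF mice. Itgam, which encodes CD11b, had a log2 fold change of -0.17 (SE 0.186) and did not pass (limma adjusted p = 0.59). Lyz2 (-0.09), Aif1 (0.36), Csf1r (-0.33), C1qa (-0.52) and Msr1 (-0.51) did not pass either, and Lyz2 was the brightest of the list. The fold changes of Mrc1 (-2.03) and Cd163 (-1.93) were the most negative. The study had already reported both genes as lower in the same cells. The median level of the list was 8.03. Of all genes, 29.5% fell at 7 to 8 and 36.2% at 8 to 9, against 60% of the general macrophage markers. This difference was not tested. Monocyte markers were measured for 7 of 8, with 3 lower and 1 higher and sums of 1407 to 2521 against 585.5 to 1118. They did not move together. F13a1 (-2.76), Chil3 (-2.67) and Vcan (-1.02) fell and Ly6c2 rose by 1.73, while Ccr2 (-0.34), Hp (-0.22) and Plac8 (0.60) did not pass. Neutrophil markers were measured for 10 of 10, with 3 lower and 0 higher (3 and 0 unadjusted) and sums of 981 to 2152 against 512 to 1018. These markers did not move together either. Mmp9 (-1.52), S100a8 (-1.32) and Mmp8 (-1.25) fell. S100a9 (-0.53), Cxcr2 (-0.54), Ltf (-0.08), Ngp (-0.08), Camp (0.13), Ly6g (0.55) and Retnlg (0.66) did not pass. The brightest of the list, which weigh most in the sums, were S100a9 and S100a8. Of the 4 platelet and erythroid markers measured of 9, 2 fell, and their sums were 739.7 to 1975 against 91 to 139.9. Most of that sum in control mice was Pf4, which fell by 4.14 on the log2 scale. Ppbp fell by 2.96, while Gp9 (0.05) and Itga2b (0.26) did not pass. T and NK cell markers moved the other way, with 2 of 8 higher (10 listed) and sums of 107 to 127 against 141 to 189. Dendritic cell markers (7 of 8 measured, 1 higher, sums of 191 to 243 against 216 to 252) and B cell markers (7 of 8 measured, 1 higher, sums of 111 to 119 against 108 to 130) were low in both groups. Tumor and mesothelial markers (11 of 11 measured) held 2 lower and 2 higher, with sums of 4370 to 5402 against 4573 to 5665. Their median level was 8.55, above the 8.03 of the general macrophage markers, so their signal was high in both groups. The part of any of these cell types in the changes of the lysosomal genes was not tested.

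Among the hydrolases, 10 of 22 measured (45.5%) fell and 0 rose (14 and 0 at an unadjusted p under 0.05), with a median log2 fold change of -0.35. Their median level was 7.02, and 29.5% of all genes at 7 to 8 fell, with a median of -0.22. The enzymes that fell furthest act on different substrates. They were an acid lipase, a cysteine protease and a glycolipid galactosidase.

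Lipa, the acid lipase that frees cholesterol and fatty acids from cholesteryl esters and triglycerides, had RMA values of 8.38, 8.57, 9.24 and 8.41 in control mice and 6.72, 6.96, 6.59 and 7.13 in anti-LIF mice. The groups lay far apart, with over 1 log2 unit between the lowest control and the highest anti-LIF array. Lipa was lower in anti-LIF mice, with a log2 fold change of -1.80 (SE 0.201, limma adjusted p = 0.00102). This is 3.48-fold lower, and the value ranked 36 from the most negative of all 22180 genes.

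Lgmn, which encodes the asparaginyl endopeptidase legumain, had values of 9.76, 9.82, 10.55 and 9.93 in control mice and 8.93, 8.88, 8.84 and 8.90 in anti-LIF mice. The anti-LIF mice were nearly level with each other, and control replicate 3 stood above the other control mice. The log2 fold change was -1.13 (SE 0.17, limma adjusted p = 0.00357).

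Gla, the alpha-galactosidase A that trims globotriaosylceramide, had values of 7.20, 7.40, 8.38 and 7.85 in control mice and 6.67, 6.69, 6.54 and 6.53 in anti-LIF mice. Control mice spread over more than 1 log2 unit, with replicate 3 highest, and none reached the anti-LIF range. Gla fell by 1.10 on the log2 scale (SE 0.22, limma adjusted p = 0.0111), with -0.88 to -1.27 when each array was left out in turn.

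Sgsh, the sulfamidase of heparan sulfate, had values of 6.74, 6.47, 6.46 and 6.02 in control mice and 5.64, 5.64, 5.53 and 5.72 in anti-LIF mice. Control replicate 4 came closest to the anti-LIF mice without reaching them. Sgsh was lower in anti-LIF mice, with a log2 fold change of -0.79 (SE 0.155, limma adjusted p = 0.0102).

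Gaa, the alpha-glucosidase that degrades glycogen in lysosomes, had values of 7.69, 8.04, 7.77 and 7.76 in control mice and 7.56, 7.20, 6.80 and 7.18 in anti-LIF mice. Here the anti-LIF mice were the more spread group, and replicate 5 lay just under the lowest control. Gaa fell by 0.63 on the log2 scale (SE 0.165, limma adjusted p = 0.0337).

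The other 5 hydrolases that fell had log2 fold changes of -0.38 to -0.58. Smpd1 (acid sphingomyelinase, -0.58, limma adjusted p = 0.0159), Asah1 (acid ceramidase, -0.53, limma adjusted p = 0.0286) and Fuca1 (alpha-L-fucosidase, -0.38, limma adjusted p = 0.0588) had groups that did not overlap. Tpp1 (a tripeptidyl peptidase, -0.58, limma adjusted p = 0.0654) and Man2b1 (lysosomal alpha-mannosidase, -0.45, limma adjusted p = 0.0777) passed although anti-LIF replicate 5 lay above control replicate 4. Of 16 alternatives, Tpp1 lost its call in 8 and Man2b1 and Fuca1 in 9 each, among them a block of paired mice.

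The 12 hydrolases that did not pass had log2 fold changes of -0.37 to 0.21. Galns, Ids and Arsb, all sulfatases of glycosaminoglycans, had groups that did not overlap, with fold changes of -0.33, -0.31 and -0.26 (limma adjusted p = 0.145, 0.16 and 0.232). Arsa, the sulfatide sulfatase, and Hexa, the alpha chain of beta-hexosaminidase A, had -0.37 and -0.33. Gusb (beta-glucuronidase), Neu1 (sialidase) and Naglu (an N-acetylglucosaminidase of heparan sulfate) had -0.29, -0.25 and -0.22. Manba, the beta-mannosidase, had 0.21 (SE 0.134, limma adjusted p = 0.334), the only positive value of the class. Pla2g15, a lysosomal phospholipase, had -0.29, but its 2 features disagreed, with -0.63 for the dimmer and 0.05 for the brighter.

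The hydrolases nearest to 0 were Idua and Ppt1. Idua, the alpha-L-iduronidase of heparan and dermatan sulfate, had values of 6.32, 6.61, 6.46 and 6.03 in control mice and 6.29, 6.41, 6.32 and 6.33 in anti-LIF mice, with every anti-LIF mouse inside the control range. Idua had a log2 fold change of -0.02 (95% interval -0.33 to 0.29). Ppt1, the thioesterase that removes palmitate from proteins, had values of 8.47, 8.13, 8.31 and 7.89 in control mice and 7.98, 8.05, 7.81 and 8.16 in anti-LIF mice. Its groups overlapped, and the log2 fold change was -0.20 (95% interval -0.53 to 0.13).

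By substrate, in groups drawn up after the values were seen, 1 of 7 glycosaminoglycan enzymes fell (Sgsh, 14.3%), and their median was -0.29 on the log2 scale. Their mean values were 5.09 to 6.90. Of all genes, 13.8% fell at 5 to 6 and 21.7% at 6 to 7, so this share was near that of all genes. Of 5 sphingolipid enzymes 3 fell (Gla, Smpd1 and Asah1), with a median of -0.53. Of 4 enzymes of glycoprotein sugar chains 2 fell (Man2b1 and Fuca1), with a median of -0.31. The median level was 6.58 for the glycosaminoglycan, 7.16 for the sphingolipid and 7.34 for the glycoprotein enzymes, and 29.5% of all genes at 7 to 8 fell. The differences between these groups were not tested.

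**Figure D4:**
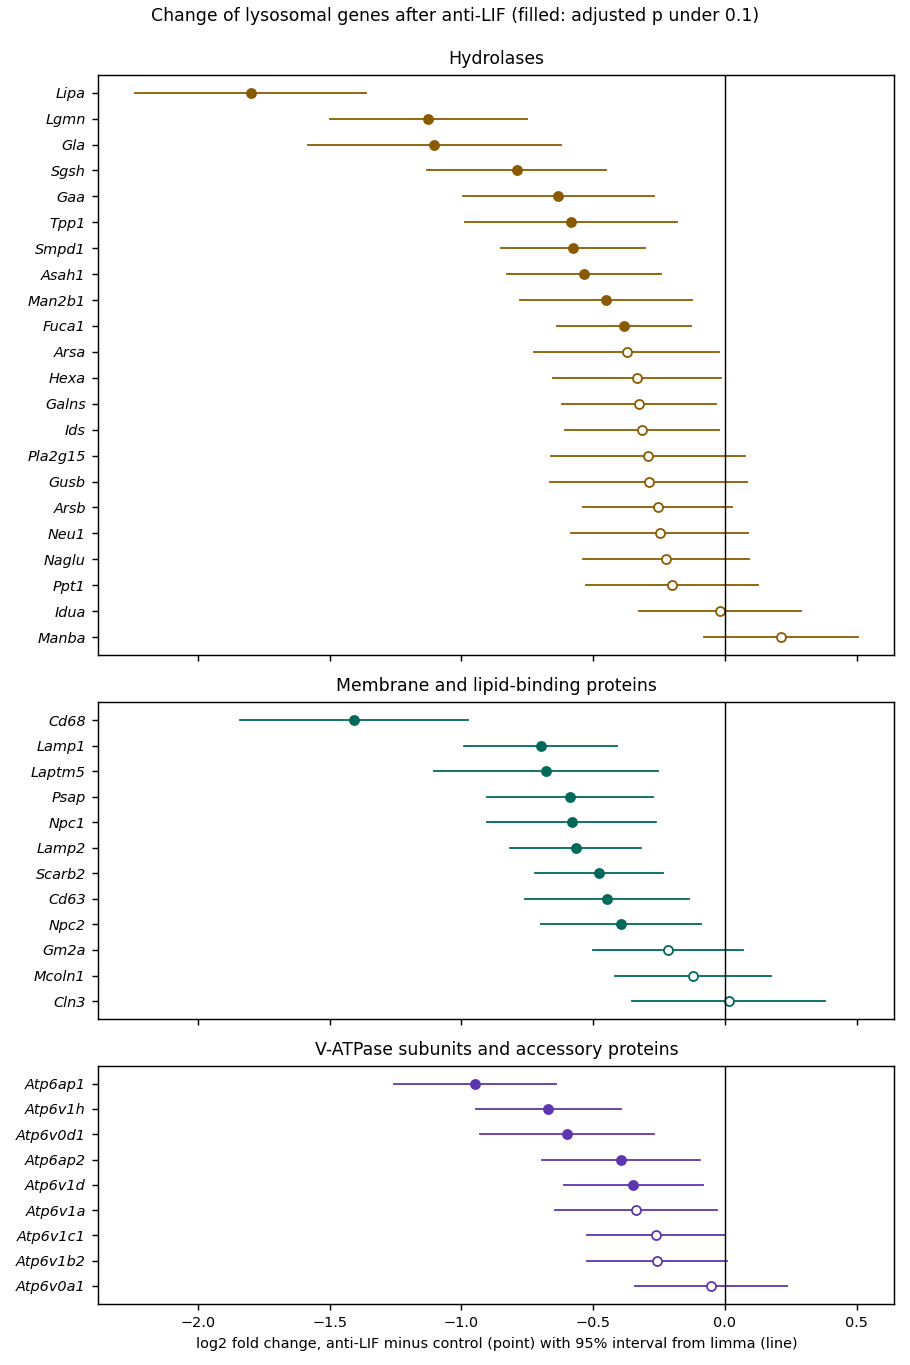
Points give the log2 fold change of each lysosomal gene (anti-LIF minus control, n = 4 mice each) and lines its 95% interval from limma, in panels for the 3 classes, filled where the adjusted p over all genes was under 0.1. Filled points number 10 of 22 hydrolases, 9 of 12 membrane and lipid-binding proteins and 5 of 9 V-ATPase genes.

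Of the membrane and lipid-binding proteins, 9 of 12 (75%) fell and 0 rose (9 and 0 at an unadjusted p under 0.05), with a median log2 fold change of -0.52. This class had the highest median level on the array, 9.67, against 7.02 for hydrolases and 7.76 for V-ATPase genes, so it lies where more genes fell. The difference between classes was not tested.

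Cd68, which encodes macrosialin, a relative of the LAMP proteins that is widely used to mark macrophages, had values of 10.09, 10.37, 11.13 and 10.34 in control mice and 8.998, 9.16, 9.005 and 9.13 in anti-LIF mice. The anti-LIF mice lay within a narrow band, well under the lowest control. Cd68 fell by 1.41 on the log2 scale (SE 0.198, limma adjusted p = 0.00281), or 2.65-fold lower.

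Lamp1, a major glycoprotein of the lysosomal membrane, had values of 10.43, 10.48, 10.83 and 10.36 in control mice and 9.84, 9.78, 9.81 and 9.89 in anti-LIF mice. The gap between the groups was wider than the spread within the anti-LIF group. Lamp1 fell by 0.70 on the log2 scale (SE 0.132, limma adjusted p = 0.00877), and Lamp2, its close relative with a part in chaperone-mediated autophagy, fell by 0.57 (SE 0.114, limma adjusted p = 0.0113).

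Laptm5, a lysosomal membrane protein of blood cells, had values of 8.23, 8.47, 9.02 and 8.25 in control mice and 7.78, 7.55, 7.77 and 8.16 in anti-LIF mice. Anti-LIF replicate 8 almost touched the control range. Laptm5 was lower in anti-LIF mice, with a log2 fold change of -0.68 (SE 0.194, limma adjusted p = 0.0466), and the call was lost without anti-LIF replicate 6 or 7 and under quantile normalization.

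Psap, the precursor of the saposins that help hydrolases reach sphingolipids, had values of 10.02, 10.14, 10.57 and 10.14 in control mice and 9.68, 9.50, 9.59 and 9.76 in anti-LIF mice. The groups did not overlap. The log2 fold change was -0.59 (SE 0.144, limma adjusted p = 0.0256).

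Npc1, the membrane protein that exports cholesterol from lysosomes, had values of 6.17, 6.73, 6.61 and 6.58 in control mice and 6.05, 5.82, 5.84 and 6.05 in anti-LIF mice. Control replicate 1 lay just above the anti-LIF mice. Npc1 fell by 0.58 on the log2 scale (SE 0.146, limma adjusted p = 0.0288), and its 2 features gave -0.39 and -0.77. Npc2, the soluble protein that hands cholesterol to NPC1, had -0.39 (limma adjusted p = 0.0944), with groups that did not overlap. Its call was lost in 10 of 16 alternatives, among them the block in the pairing with the highest adjusted p.

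Scarb2, the receptor that carries beta-glucocerebrosidase to lysosomes, had -0.48 (limma adjusted p = 0.0209), and Cd63, a tetraspanin of late endosomes, had -0.45 (limma adjusted p = 0.0685), a call lost in 9 of 16 alternatives. Gm2a, the activator that presents GM2 ganglioside to hexosaminidase, had -0.22 and did not pass (limma adjusted p = 0.318).

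The 2 members of this class nearest to 0 were Mcoln1 and Cln3. Mcoln1, the calcium channel TRPML1, had values of 7.19, 7.47, 7.53 and 7.24 in control mice and 7.39, 7.04, 7.18 and 7.33 in anti-LIF mice, and the groups overlapped. Mcoln1 had a log2 fold change of -0.12 (95% interval -0.42 to 0.18). Cln3, the membrane protein lost in juvenile Batten disease, had values of 6.35, 6.87, 6.92 and 6.68 in control mice and 7.08, 6.62, 6.51 and 6.67 in anti-LIF mice, with anti-LIF replicate 5 the highest of all 8 arrays. For Cln3 it was 0.01 (95% interval -0.35 to 0.38).

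The V-ATPase is built from a V1 sector, which splits ATP in the cytosol, and a membrane V0 sector, through which protons pass. Of its 9 listed genes 5 fell (55.6%) and 0 rose (7 and 0 at an unadjusted p under 0.05), and all 9 fold changes were negative, with a median of -0.35. Their mean values were 7.00 to 8.87. Of all genes, 29.5% at 7 to 8 and 36.2% at 8 to 9 fell, with medians of -0.22 and -0.25. The difference from genes of like level was not tested. Both accessory proteins fell, as did 2 of 5 V1 genes and 1 of 2 V0 genes. The count depended on the fit, with 3 genes under quantile normalization, 3 in each of the 24 pairings of mice fitted as a block, 3 without any 1 array other than control replicate 1, and 6 without that array. The 3 were Atp6ap1, Atp6v1h and Atp6v0d1, that is 1 accessory protein, 1 V1 gene and 1 V0 gene under the block, quantile normalization and those left-out arrays.

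Atp6ap1, the accessory protein Ac45, had values of 8.82, 8.80, 9.22 and 8.74 in control mice and 7.90, 7.79, 8.02 and 8.09 in anti-LIF mice. The lowest control lay above the highest anti-LIF array by more than the range of the anti-LIF group. Atp6ap1 was lower in anti-LIF mice, with a log2 fold change of -0.95 (SE 0.141, limma adjusted p = 0.00337), or 1.93-fold lower.

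Atp6v1h, the V1 subunit H, had values of 7.79, 7.87, 7.89 and 8.10 in control mice and 7.22, 7.38, 7.07 and 7.28 in anti-LIF mice. Here control replicate 4, not replicate 3, was highest. The log2 fold change was -0.67 (SE 0.126, limma adjusted p = 0.00865).

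Atp6v0d1, the V0 subunit d1, had values of 7.14, 7.17, 7.73 and 7.17 in control mice and 6.68, 6.67, 6.66 and 6.81 in anti-LIF mice. Control replicate 3 stood apart from the other control mice, which still lay above every anti-LIF mouse. Atp6v0d1 fell by 0.60 on the log2 scale (SE 0.15, limma adjusted p = 0.0285) and stayed between -0.46 and -0.65 when each array was left out.

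Atp6ap2, the prorenin receptor and second accessory protein, had values of 7.04, 7.37, 7.58 and 7.21 in control mice and 6.96, 6.93, 6.90 and 6.82 in anti-LIF mice. Its groups were separated by less than 0.1. Atp6ap2 was lower in anti-LIF mice, with a log2 fold change of -0.39 (SE 0.137, limma adjusted p = 0.0913). The call was lost in 10 of 16 alternatives, which include the block and each left-out array but control replicate 1.

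Atp6v1d, a subunit of the V1 central stalk, had values of 7.94, 7.95, 8.17 and 8.12 in control mice and 7.76, 7.77, 7.57 and 7.70 in anti-LIF mice. The groups did not overlap. Its log2 fold change was -0.35 (SE 0.12, limma adjusted p = 0.0894). Its call was lost in the same 10 alternatives as that of Atp6ap2.

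The other 4 V-ATPase genes did not pass. Atp6v1b2, the B2 subunit of the ATP-splitting ring, had values of 8.89, 8.90, 9.14 and 9.09 in control mice and 8.68, 8.67, 8.75 and 8.87 in anti-LIF mice. Its groups did not overlap, by a margin far smaller than either range, and the log2 fold change was -0.26 (95% interval -0.52 to 0.01). Atp6v0a1, the a1 isoform of the V0 subunit that forms the proton path, had values of 7.73, 7.62, 7.62 and 7.45 in control mice and 7.35, 7.49, 7.60 and 7.77 in anti-LIF mice, which overlapped almost wholly. The fitted change was -0.05 on the log2 scale (95% interval -0.34 to 0.24). Atp6v1a, the catalytic A subunit, and Atp6v1c1, a subunit of the peripheral stalk, had -0.34 and -0.26 (limma adjusted p = 0.149 and 0.186).

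Averaged over a class, each anti-LIF mouse lay below each control mouse. Hydrolase means in control mice were -0.02, 0.02, 0.21 and -0.21 from the control mean, and those in anti-LIF mice -0.41, -0.54, -0.54 and -0.44. Membrane and lipid-binding means were -0.16, 0.01, 0.23 and -0.08 in control mice and -0.44, -0.57, -0.58 and -0.47 in anti-LIF mice. V-ATPase means were -0.13, -0.05, 0.17 and 0.00 in control mice and -0.46, -0.44, -0.45 and -0.37 in anti-LIF mice. In all 3 classes control replicate 3 was highest, and the other control mice kept no common order. No test was made on these means, since the members were chosen with results known.

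**Figure D5:**
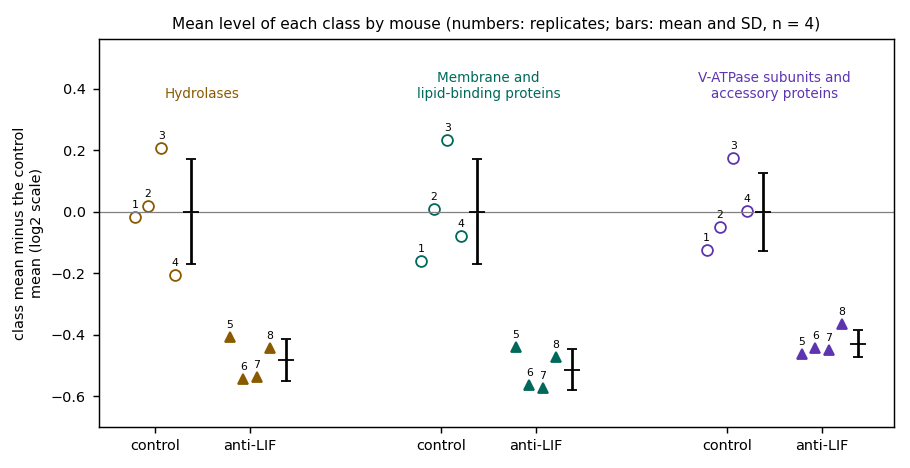
The mean log2 level of each class in each mouse is plotted as the difference from the control mean, with replicate numbers beside the points, open circles for control and filled triangles for anti-LIF mice, and bars for the mean and SD (n = 4). Anti-LIF mice lie between -0.58 and -0.37 and control mice between -0.21 and 0.23.

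The start of these genes was read next, since lysosomal genes are known to share the motif TCACGTG in their promoters. As background, it is the core of the CLEAR element, described in human cells, to which TFEB and its relatives bind. Promoter sequence from RefSeq (GRCm38.p6), 250 bases before to 50 after the start, was given for 37 of the 43 members, the others being Galns, Asah1, Npc1, Atp6v1h, Atp6v1c1 and Atp6v1b2. TCACGTG was searched on both strands. It contains CACGTG, so every match is also a match of the shorter motif. TCACGTG stood in 11 of the 37 members (29.7%), against 5.13% of 16990 array genes with a promoter and 3.77% of all 32851 promoters of the table. Lysosomal genes were already known to share it, so this share is no independent finding about the members. CACGTG stood in the same number of members (29.7%), against 9.19% of those array genes and 7.15% of all promoters. By class, 6 of 20 hydrolases, 3 of 11 membrane and lipid-binding genes and 2 of 6 V-ATPase genes held it. These 11 genes held 17 sites, of which 4 were in Lamp1 and 2 each in Gla, Cln3 and Mcoln1. Shown are 10 of them, 1 for each of the 9 genes with a window that ends before the start and the second of Gla. The sites of Atp6v0d1, which fell, and Arsa, which did not pass, lie next to the start and are not shown, nor are the remaining ones of Lamp1, Cln3 and Mcoln1. Genes that fell come first, each site as 30 bases of the gene's strand, 5′ to 3′, with TCACGTG or its reverse complement CACGTGA in capitals.
Gla, chrX:134601215-134601244, minus strand: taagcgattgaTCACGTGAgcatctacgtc
Gla, chrX:134601182-134601211, minus strand: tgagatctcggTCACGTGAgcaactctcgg
Lgmn, chr12:102439124-102439153, minus strand: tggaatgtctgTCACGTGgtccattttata
Sgsh, chr11:119355522-119355551, minus strand: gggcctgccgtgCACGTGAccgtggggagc
Gaa, chr11:119267811-119267840, plus strand: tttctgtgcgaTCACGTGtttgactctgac
Lamp1, chr8:13159088-13159117, plus strand: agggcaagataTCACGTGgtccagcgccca
Mcoln1, chr8:3500462-3500491, plus strand: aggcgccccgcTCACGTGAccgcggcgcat
Cln3, chr7:126583340-126583369, minus strand: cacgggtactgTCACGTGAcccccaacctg
Naglu, chr11:101070009-101070038, plus strand: caaccttcaggTCACGTGgcccgaggtcgg
Atp6v1a, chr16:44139373-44139402, minus strand: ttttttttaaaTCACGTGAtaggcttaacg

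Both genes with and genes without the motif fell. Of the 11 members with TCACGTG 6 fell, with a median log2 fold change of -0.60, and of the 26 without it 15 fell, with a median of -0.39. Among the sites shown, those of Gla, Cln3, Mcoln1 and Atp6v1a hold the 8-base palindrome made when the motif meets its reverse complement. Gla fell, with log2 fold change -1.10. Cln3 (0.01), Mcoln1 (-0.12) and Atp6v1a (-0.34) did not pass. In Lipa, Cd68 and Atp6ap1 these letters are not in the window of 300 bases. Of all array genes, 18.1% of the 871 with TCACGTG and 11.2% of the 16119 without it fell, with medians of -0.06 and 0.03. The share that fell rose with level, and the levels of these 2 sets were not compared. A link of the motif to the change was not tested. A match is a description of the letters in this window, and binding was not measured.

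Other genes of the lysosome were counted from lists that do not overlap with the 45. For scale, the share of all genes that fell was 13.8% at a mean value of 5 to 6, 21.7% at 6 to 7 and 29.5% at 7 to 8. Of 27 other hydrolases and their activator, 20 were measured, of which 9 (45%) fell and 0 rose (12 and 0 at an unadjusted p under 0.05). Their median log2 fold change was -0.50 and their median level 7.17. Acp5 (tartrate-resistant acid phosphatase) had -1.05, Arsg (a sulfatase of heparan sulfate) -0.81, Scpep1 (a serine carboxypeptidase) -0.74 and Smpdl3a (a phosphodiesterase related to acid sphingomyelinase) -0.71. The groups of Smpdl3a overlapped, and its call was lost in 11 of 16 alternatives. Of 31 other membrane and lumenal proteins, 30 were measured, 9 (30%) fell and 0 rose (12 and 0 unadjusted). Their median was -0.27, at a median level of 6.36. Slc48a1 (a heme transporter) had -1.05, Ctns (the cystine exporter) -0.71, Grn (progranulin) -0.64 and Pip4p1 (a phosphoinositide phosphatase) -0.60. Grn and Pip4p1 lost their call under quantile normalization.

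The remaining V-ATPase genes were measured for 15 of 16, with 4 lower (26.7%), 1 higher (5 and 3 at an unadjusted p under 0.05) and a median of 0.01. Their median level was 5.26. Only 8 of these 15 lay above the median level of the array's genes, against all 9 of the V-ATPase genes described above, and the difference between the lists was not tested. Among the dim genes were Atp6v1b1 (mean value 3.93, log2 fold change 0.12) and Atp6v0a4 (3.40 and 0.04). The d2 isoform Atp6v0d2, which is best known from osteoclasts, had -1.83 (SE 0.289, limma adjusted p = 0.00436), against -0.60 for the d1 isoform. Atp6v0d2 was dim too, with a mean value of 4.48 against 7.00 for d1 and a median of 4.61 over all genes. Atp6v1e1 had -0.73, Atp6v1g1 -0.55 and Atp6v1g2, the G isoform known from neurons, 0.50 (limma adjusted p = 0.0646, a call lost in 8 of 16 alternatives). Atp6v1g1 lost its call under quantile normalization. Genes that bring hydrolases to the lysosome were measured for 22 of 22, with 8 lower (36.4%), 0 higher (10 and 0 unadjusted) and a median of -0.21. Their median level was 7.21. All genes at 7 to 8 had 29.5% lower and a median of -0.22, so this list lay near genes of like level. Snx2 (a sorting nexin, -0.77) and Vps29 (a retromer subunit, -0.76) were furthest down, followed by Cln6 (-0.68) and Cln8 (-0.65), which pass enzymes out of the endoplasmic reticulum. The call of Cln8 was lost in 11 of 16 alternatives, and that of Cln6 under quantile normalization.

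Factors and sensors that act on the lysosome were measured for 20 of 20, with 8 lower (40%), 0 higher (12 and 0 unadjusted) and a median of -0.38. Their median level was 6.26, and all genes at 6 to 7 had 21.7% lower and a median of -0.16. The Rag GTPases Rragc (-1.04) and Rraga (-0.91), which hold mTORC1 at the lysosome, and Fnip2 (-0.90), a partner of folliculin, fell. Of the MiT/TFE transcription factors, Tfec, the member known from macrophages, fell by 0.92 on the log2 scale (SE 0.229, limma adjusted p = 0.028). The other 3 of this family, named after their values were seen, did not pass, with -0.02 for Tfeb, -0.07 for Tfe3 and -0.47 for Mitf (limma adjusted p = 0.101). Late endosome tethering and fusion genes were measured for 20 of 22, with 8 lower (40%), 1 higher and a median of -0.26, at a median level of 6.82. Rab7b (-0.96), Plekhm1 (-0.94), Rab5a (-0.68) and Rab7 (-0.65) fell, and Rilp, a RAB7 effector named after its value was seen, rose by 0.37. Rab5a lost its call under quantile normalization.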

How the data were processed

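The deposited values are log2 RMA values, which the authors had made by a service provider from 8 Affymetrix Mouse Gene 2.1 ST arrays. Per the labels R 3.1.2 was used. No source used here gives the RMA software. RMA already includes background correction and quantile normalization. The precision is set by how few arrays there are. Of 41345 features, 23521 with 1 gene symbol were averaged to 22180 genes (1082 with several features), and no gene value was drawn from the 1820 features with several symbols or the 16004 with none. No filter on low values was applied. The comparison used lmFit and eBayes of limma 3.58.1 under R 4.3.3, with p-values adjusted by Benjamini-Hochberg over all genes and the study's threshold of 0.1. Exact two-sided permutation tests ran over 70 assignments of the arrays. The scripts were tested on simulated data. The study's methods name paired samples, but no source used here tells which, so the fit had no pairs, and all 24 pairings were tried as blocks. Each array is 1 mouse. Values of every array are given for up to 5 members per class that passed with the largest change and for the 2 nearest to 0, and up to 4 genes that passed are named from each other list. Members, lists and tests were chosen with earlier results of these data known, and are no independent evidence of a direction.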

Additional observations from a re-analysis of the deposited data

Results flagged for a closer look

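In the 43 lysosomal genes, 86 groups of 4 arrays were checked for an array that stands apart from the other 3, and 4 were found. Chance alone gives this in about 1 in 20 groups. In Galns, control replicate 3 had 5.57 and the next array 5.15. In Atp6v0d1, control replicate 3 had 7.73 and the next 7.17, and anti-LIF replicate 8 had 6.81 and the next 6.68. In Atp6ap1, control replicate 3 had 9.22 and the next 8.82. In 3 of the 4, the array was control replicate 3, which was also the highest control in 27 of the 43 genes. Without it, Atp6v0d1 and Atp6ap1 still fell.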

How the results depend on the processing

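Quantile normalization applied again moved the most values. The members that fell went from 24 to 11, with 5 hydrolases, 3 membrane and lipid-binding genes and 3 V-ATPase genes, and the class medians became -0.19, -0.27 and -0.13 on the log2 scale. No member rose under the alternatives that were fitted. The number of V-ATPase genes that fell, 5, became 8 with only genes above the median level tested, where 28% of all genes tested fell, and 3 at an adjusted p under 0.05. For all members the count was 31 in that fit, 29 after centring, 27 with trend and robust settings and 17 at an adjusted p under 0.05. Without each array in turn it was 3 to 6, and for all members 16 to 22, with 17 without control replicate 3 and 16 without anti-LIF replicate 7. With the replicate block, 17 to 21 members fell over the 24 pairings, of which V-ATPase genes made 3 in the lowest and 3 in the highest. The count without overlap (27), in place of the test, was chosen after seeing the data. Of the 24 calls, 11 held under each alternative tried, while 8 members that did not pass did so under some alternative. Signs turned only for genes that did not pass. Under quantile normalization the log2 fold change became 0.12 for Idua, 0.02 for Ppt1 (0.019), 0.08 for Gm2a (0.082), 0.09 for Mcoln1 (0.089) and 0.16 for Atp6v0a1. Pla2g15 had 0.05 with its brighter feature (0.052). Cln3 had -0.05 after centring (-0.053) and -0.00169 with array weights. Leaving out 1 array gave Idua a highest value of 0.0654 (without control replicate 2) and 0.017 without control replicate 3. It gave Cln3 -0.105 without control replicate 1, -0.106 without anti-LIF replicate 5 and up to 0.0855 (without control replicate 3), and Atp6v0a1 0.016 without anti-LIF replicate 5.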
